A study of Mus musculus with 8 samples.

Results

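AP-1 and immediate early transcription factors include many genes that somatic cells switch on within minutes of a stress or growth signal. The group described here has 10 genes of the 37310 in the count tables: Fos, Fosb, Fosl1, Fosl2, Jun, Junb, Jund, Egr1, Atf3 and Myc. They were chosen by gene symbol, and each matched 1 row. RNA-seq was done on pools of whole mouse embryos at the 2-cell stage, with 4 pools that lacked both Gadd45a and Gadd45b (double knockout, DKO) and 4 wild-type pools, all on the C57BL/6N strain. Each pool held 23 to 35 embryos of a single litter, taken 20 h after the vaginal plug from superovulated and naturally mated females of 3 to 4 weeks that had the genotype of their pool. Both alleles are germline knockouts, so gene products from the mother and from the embryo were lost together and cannot be told apart. GADD45 proteins are small stress-inducible proteins that act upstream of the p38 and JNK kinases, and those kinases phosphorylate AP-1 subunits.

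AP-1 is a dimer of basic leucine zipper (bZIP) proteins. A FOS protein must pair with a JUN protein to bind DNA, whereas JUN proteins also pair with one another and with ATF proteins. In somatic cells serum response factor with its TCF partners, and CREB with its relatives, switch on the promoters of Fos, Egr1 and Junb through MAP kinase signals, and most of the RNAs decay quickly. The mouse embryo starts transcription of its own genome at the end of the 1-cell stage and most strongly at the late 2-cell stage, while RNA inherited from the oocyte is cleared.

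Each library held 21329736 to 23919114 counts and had 18433 to 20427 genes with a count. Gadd45b had 4, 14, 1 and 6 counts in DKO pools 1 to 4, against 910, 946, 1395 and 808 in wild-type pools 1 to 4, so none of the 8 libraries went against its label. Gadd45a had 237, 247, 163 and 201 counts in DKO pools 1 to 4, against 482, 341, 502 and 468 in wild-type pools 1 to 4, and the sources do not say which part of it was deleted, so its remaining reads check nothing. None of the 10 genes lies on chromosome 6 or 10, which carry Gadd45a and Gadd45b. The 12 markers of the 2-cell embryo and oocyte were all detected, with summed levels of 6070 to 9220 CPM (counts relative to the TMM-scaled library total) in DKO and 4380 to 6100 CPM in wild-type pools. Globin RNA set 2 libraries apart. The beta-globin gene Hbb-bs had 1776 counts in DKO pool 4 and 1576 in wild-type pool 1, and at most 4 in any other library. The alpha-globin gene Hba-a1 had 1148 and 1018 counts in these pools and 27 to 68 in the others, so some globin RNA was in every library. The 2 high pools are called globin-bearing below. Of the leukocyte and macrophage markers in the blood list, Ptprc had a single count over the 8 libraries and Lyz2 109, while Cd68 had 130 to 185 counts in DKO and 89 to 147 in wild-type pools. Of 17 cumulus and granulosa cell markers, Ptx3, Amh, Foxl2 and Inhba had 0 counts in every library and the other 13 were detected in at least 1. Amhr2 was the highest of them, with 433 to 762 counts in DKO and 500 to 654 in wild-type pools, and Tnfaip6 had 126 to 245 in DKO and 130 to 251 in wild-type pools. The summed level of all 17 was 32.6 to 48.7 CPM in DKO and 34.9 to 43.4 CPM in wild-type pools (exact two-sided permutation test, p = 0.857). Sperm markers summed to 1.11 to 2.37 CPM in DKO and 0.518 to 1.47 CPM in wild-type pools, and the smallest adjusted p of 4 such marker tests was 0.228. In bulk pools fewer cells of a kind and less RNA per cell cannot be told apart.

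Promoter sequence came from RefSeq windows on GRCm38.p6, which held 7 of the 10 genes; Fosl1, Egr1 and Myc were not among them. The 250 bases before the start were searched on both strands for TGANTCA (the AP-1 site), TGACGTCA (the CREB and ATF site), TGACGT (the core within it) and TGACATCA (a site of JUN and ATF2), and on the gene's strand for TATAAA. The 120 bases before the start are printed for the 3 genes whose window held one of them, because these are the sites known for AP-1, CREB and ATF proteins and the TATA box; capitals mark the match.
Fos, chr12:85473770-85473889, + strand: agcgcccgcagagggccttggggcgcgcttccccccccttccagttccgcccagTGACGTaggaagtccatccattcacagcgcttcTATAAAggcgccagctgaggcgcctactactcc
Jun, chr4:95052223-95052342, - strand: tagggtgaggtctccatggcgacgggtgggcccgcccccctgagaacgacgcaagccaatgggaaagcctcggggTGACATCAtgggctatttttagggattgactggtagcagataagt
Atf3, chr1:191183334-191183453, - strand: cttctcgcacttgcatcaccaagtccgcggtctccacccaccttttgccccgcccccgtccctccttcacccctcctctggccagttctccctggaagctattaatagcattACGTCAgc

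In the Fos window the TGACGT core starts 66 bases before the start and TATAAA 33 bases before it. The Jun window has TGACATCA 45 bases before the start, and the Atf3 window has the core on its other strand, as ACGTCA, 8 bases before it. Of 32851 RefSeq windows, 6.47% hold TGACGT, 2.93% TGACATCA, 7.59% TATAAA, 6.75% TGANTCA and 1.55% TGACGTCA. The last of these motifs contains TGACGT. No match for any of the 5 was found in the windows of Fosb, Fosl2, Junb or Jund, and the RefSeq start of Jund lies 1210 bases from the nearest GENCODE start. The motifs, TGACATCA among them, were chosen as known sites, so the shares over all windows do not test these matches. A match is a description of letters and not a measured binding site.

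Within the group, Jund and Myc carried most of the RNA and the other 8 genes were low. Jund and Myc together made up 64.3% to 86.1% of the counts of the 10 genes in a library, and all 10 together were 0.00265% to 0.00308% of the counts in DKO and 0.00179% to 0.00293% in wild-type libraries. Per kilobase of exon, which allows genes to be compared, Jund averaged 5.75 ± 1.33 CPM in DKO and 5.96 ± 1.87 CPM in wild-type pools, and Myc 4.66 ± 1.22 CPM in DKO and 3.91 ± 1.12 CPM in wild-type pools (SD, n = 4 each). Among the 20175 protein-coding genes of the tables, 75.2% had a lower level per kilobase than Jund and 71.7% a lower one than Myc. The same share was 46.5% for Junb and 24.4% for Jun, the founding member of its family.

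Ordered by mean level per kilobase over all 8 libraries, the 10 genes ran Jund, Myc, Egr1, Junb, Fos, Atf3, Fosb, Jun, Fosl2 and Fosl1. The step that stood clear of the spread was that from Myc to Egr1, a ratio of 6.96 with Myc above Egr1 in all 8 libraries. Fosb also exceeded Jun in all 8 libraries, by a ratio of 3.15, but Jun had at most 5 counts in a library. In wild-type pool 1 they were nearly equal, at 0.0692 and 0.0677 CPM per kilobase. Jund exceeded Myc in 5 of 8 libraries, and Egr1 exceeded Junb in 6 of 8, so the order of these neighbours did not hold in every pool. Fos and Atf3 differed by a ratio of 1.04 and Jun and Fosl2 by 1.05, each well within their spread.

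**Figure D1:**
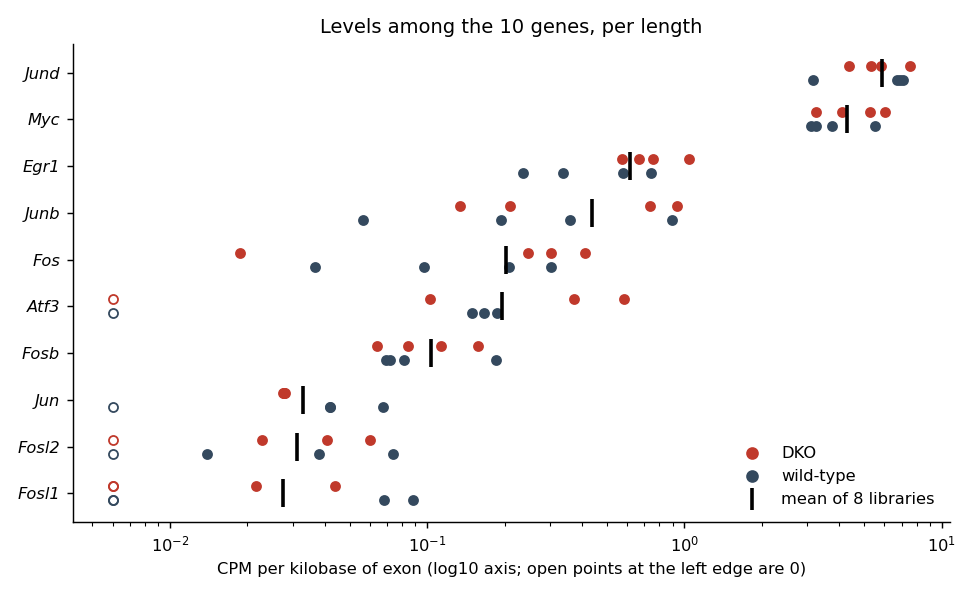
Level of each of the 10 genes in CPM per kilobase of exon on a log10 axis, with 1 point for each of the 4 DKO and 4 wild-type libraries and a bar at the mean of the 8. Jund and Myc lie between 3.11 and 7.52 CPM per kilobase, and open points at the left edge are libraries with 0 counts.

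The comparison of DKO with wild-type pools asked whether loss of Gadd45a and Gadd45b changes these stress-responsive factors in the embryo. No change was detected in any of the 10 genes, and for Fos, Fosb, Junb, Jun, Atf3, Fosl1 and Fosl2 the intervals are wide enough to hold a 2-fold change in either direction. The log2 interval of Egr1, −0.18 to 1.53, holds a 2-fold rise but not a 2-fold fall. Of the 10 genes, 6 passed the filter on low counts and were tested: Fos, Fosb, Junb, Jund, Egr1 and Myc. edgeR's quasi-likelihood test called 0 of the 6 at an adjusted p under 0.05, with 0 at an unadjusted p under 0.05, which 10.2% of all tested genes reached, and DESeq2, which gave Fos and Fosb no adjusted p, and limma-voom also called 0. Over all 14970 genes tested edgeR called 4, or 0.0267%. The DKO and wild-type values overlapped in all 10 genes, while in 5.34% of all tested genes they did not. Of the 6 tested, 5 had a positive log2 fold change, against 51.2% of all tested genes.

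Among the JUN family, Jund, the subunit that somatic cells keep at a steady level without a stimulus, had 216, 202, 164 and 282 counts in DKO pools 1 to 4, against 122, 244, 264 and 257 in wild-type pools 1 to 4. Wild-type pool 1 was the lowest of the 8, at 5.27 CPM, and the other 7 lay between 7.25 and 12.5 CPM. The log2 fold change of Jund was −0.05 ± 0.28 (standard error, 95% interval −0.66 to 0.55, edgeR adjusted p = 0.956). Its sign turned when DKO pool 3 or wild-type pool 2, 3 or 4 was left out, with values up to 0.06. An antisense gene, Gm11175, overlaps 52.6% of the exon bases of Jund and had 0 counts in every library.

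Junb, an inducible subunit that can restrain JUN in somatic cells, varied more between pools than between genotypes. It had 48, 7, 11 and 38 counts in DKO pools 1 to 4, against 3, 18, 46 and 10 in wild-type pools 1 to 4. DKO pools 1 and 4 and wild-type pool 3 were high and the other 5 were low, so both genotypes held high and low pools. The log2 fold change was 0.42 ± 0.77 (standard error, 95% interval −1.23 to 2.07, edgeR adjusted p = 0.851). It was −0.07 without DKO pool 1, 0.05 without wild-type pool 1, 1.29 without wild-type pool 3 and −0.17 without both globin-bearing pools. Junb shares 173 exon bases with Prdx2, an abundant peroxiredoxin gene on the opposite strand with 346323 counts over the 8 libraries, so reads of Prdx2 in that stretch may have been lost to or added to Junb.

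Jun itself, the JNK substrate after which the family is named, was near the limit of detection. DKO pools 1 to 4 had 2 counts each, and wild-type pools 1 to 4 had 5, 0, 3 and 3. The sums were 8 in DKO and 11 in wild-type pools, with exact 95% Poisson intervals of 3.45 to 15.8 and of 5.49 to 19.7 counts, which cover counting error only. Jun did not pass the filter, and without a filter its log2 fold change was −0.43 (95% interval −3.34 to 2.47, edgeR adjusted p = 0.934). Jund made up 81.2% to 95.7% of the JUN family counts in DKO and 84.3% to 95.2% in wild-type libraries, without correction for gene length. Jun shares 232 exon bases with Junos, an antisense gene that had 36 counts over the 8 libraries.

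**Figure D2:**
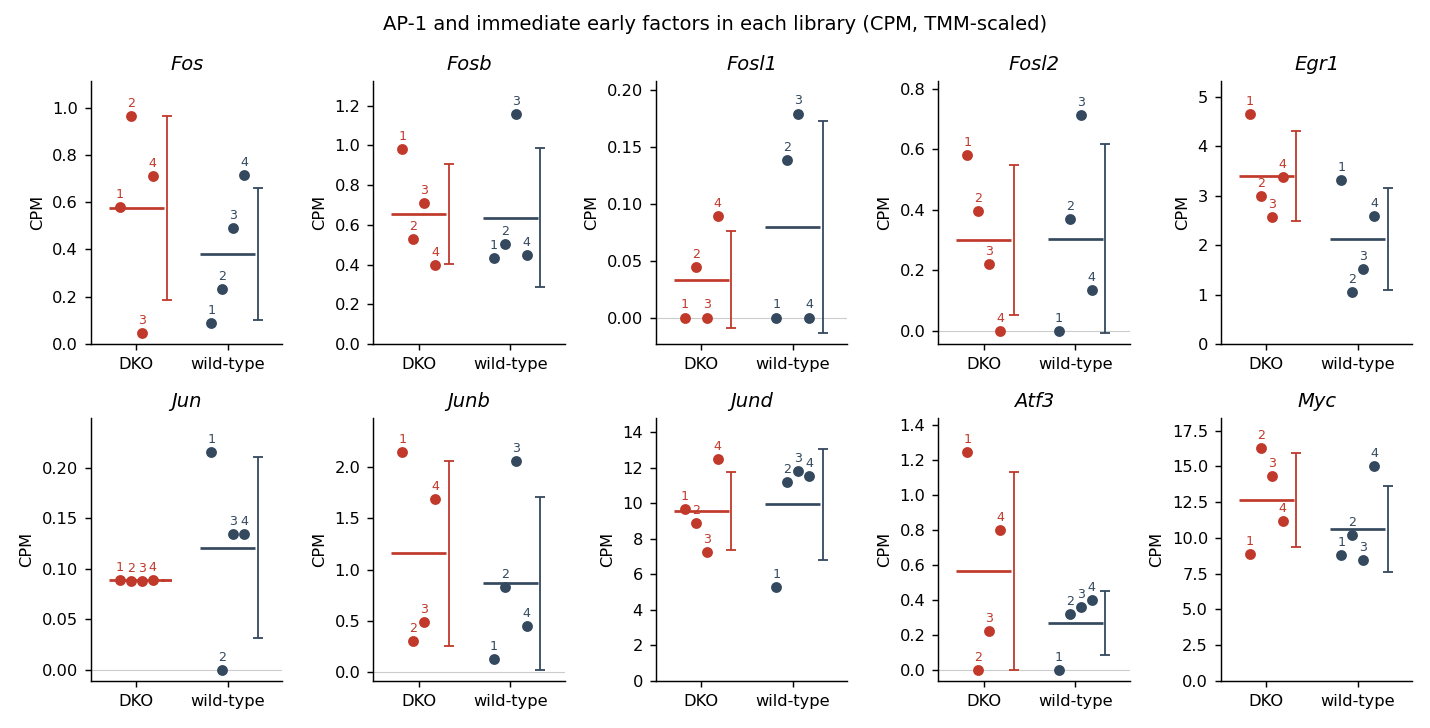
Level of each of the 10 genes in every library in CPM, DKO to the left of wild-type, with the pool number above each point, a line at the mean and a bar of 1 SD on each side (n = 4 each). DKO and wild-type points overlap in every panel, and the scale differs between panels, from under 0.2 CPM for Fosl1 to 16.3 CPM for Myc.

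The FOS family, whose proteins need a JUN partner, was low in every pool. Summed over its 4 genes it had 48, 44, 22 and 27 counts in DKO pools 1 to 4, against 12, 27, 57 and 29 in wild-type pools 1 to 4. Fos had 13, 22, 1 and 16 counts in DKO pools 1 to 4, against 2, 5, 11 and 16 in wild-type pools 1 to 4. The single count of DKO pool 3 was the lowest of the 8 and lay beside the higher values of the same genotype. The log2 fold change of Fos was 0.59 ± 0.83 (standard error, 95% interval −1.19 to 2.37, edgeR adjusted p = 0.804), and limma-voom with quality weights put it at −0.08. It ranged from 0.22 without DKO pool 2 to 1.08 without wild-type pool 4.

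Fosb, best known for its stable form in stimulated neurons, had 22, 12, 16 and 9 counts in DKO pools 1 to 4, against 10, 11, 26 and 10 in wild-type pools 1 to 4. Its highest pools were wild-type 3 and DKO 1, so the genotypes did not separate. The log2 fold change was 0.04 ± 0.62 (standard error, 95% interval −1.28 to 1.36, edgeR adjusted p = 0.986), and its sign turned without DKO pool 1 or wild-type pool 1, 2 or 4, down to −0.23. Without wild-type pool 3 it was 0.49.

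Fosl1 and Fosl2 encode FRA1 and FRA2, the late members of the family in stimulated cells. Fosl1 had counts in 4 of 8 libraries, with 0, 1, 0 and 2 in DKO pools 1 to 4 and 0, 3, 4 and 0 in wild-type pools 1 to 4. On GRCm38 the opposite-strand gene Ccdc85b covers 57.2% of the exon bases of Fosl1. Ccdc85b is not among the genes counted, and whether its reads were added to Fosl1 was not tested. A library with 0 counts still allows up to 3 counts, or 0.130 to 0.138 CPM. Fosl2 had 13, 9, 5 and 0 counts in DKO pools 1 to 4, against 0, 8, 16 and 3 in wild-type pools 1 to 4, the same sum of 27 in each genotype. Neither passed the filter. Without one, the log2 fold changes were −1.13 for Fosl1 and −0.03 for Fosl2 (edgeR adjusted p = 0.813 and 1), and the interval of Fosl1 ran from −4.48 to 2.23.

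Atf3, a bZIP factor that stress and p53 induce and that pairs with JUN proteins, had 28, 0, 5 and 18 counts in DKO pools 1 to 4, against 0, 7, 8 and 9 in wild-type pools 1 to 4. The 2 highest pools, DKO 1 and DKO 4, were also 2 of the 3 highest for Junb, and both genotypes held a pool with 0. Atf3 did not pass the filter, and without one its log2 fold change was 1.05 (95% interval −1.13 to 3.22, edgeR adjusted p = 0.7).

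Egr1, a zinc finger factor that is a classic target of serum response factor, had the smallest p of the 6 tested genes. It had 104, 68, 58 and 76 counts in DKO pools 1 to 4, against 77, 23, 34 and 58 in wild-type pools 1 to 4. Wild-type pools 2 and 3 were the lowest of the 8, while wild-type pools 1 and 4 lay within the DKO range. Egr1 averaged 3.40 ± 0.90 CPM in DKO and 2.12 ± 1.03 CPM in wild-type pools (SD, n = 4 each), and the log2 fold change was 0.67 ± 0.40 (standard error, 95% interval −0.18 to 1.53, edgeR adjusted p = 0.542, unadjusted p = 0.112). The sign was positive in each of 16 alternative settings, with adjusted p of 0.428 or more. The unadjusted p was 0.033 without wild-type pool 1 and 0.0394 by limma-voom. Without DKO pool 1 the log2 fold change was 0.48.

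Myc, the bHLH factor that drives growth and ribosome synthesis with its partner MAX, had 198, 372, 323 and 251 counts in DKO pools 1 to 4, against 204, 222, 189 and 336 in wild-type pools 1 to 4. Both genotypes ranged from under 9 to at least 15 CPM, and wild-type pool 4 was the second highest of the 8. Myc averaged 12.7 ± 3.31 CPM in DKO and 10.6 ± 3.03 CPM in wild-type pools (SD, n = 4 each), and the log2 fold change was 0.25 ± 0.26 (standard error, 95% interval −0.30 to 0.81, edgeR adjusted p = 0.725). The interval therefore does not reach a 2-fold change in either direction. The value ranged from 0.10 without DKO pool 2 to 0.46 without wild-type pool 4.

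**Figure D3:**
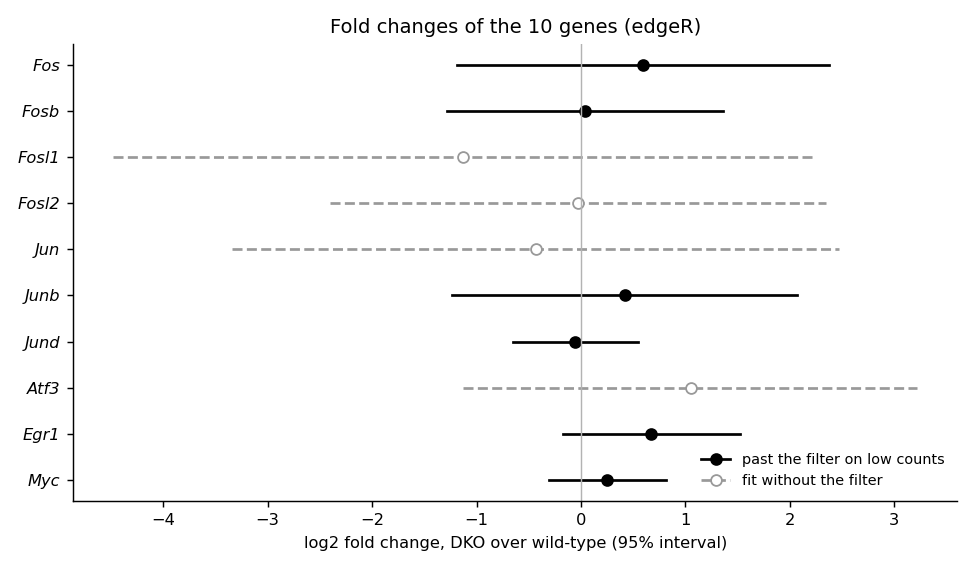
Log2 fold change, DKO over wild-type, of each of the 10 genes with its 95% interval from edgeR. Filled points are the 6 tested genes, open points with broken lines the 4 genes seen only in a fit without a filter, and every interval includes 0, from −0.66 to 0.55 for Jund to −4.48 to 2.23 for Fosl1.

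Wild-type pool 1 was low in several of these genes at once. It had the lowest counts of the 8 for Jund and Junb and 0 for Atf3, Fosl1 and Fosl2, and 7 of the 10 genes had a count there, against 9 or 10 in every other library. Other genes did not follow: Egr1, with 77 counts (3.32 CPM), was highest of the wild-type pools there, and Jun, with 5 counts, was highest of the 8. It was also the library with the fewest genes detected, 18433, and a globin-bearing pool. The part of either in these values was not tested. With both globin-bearing pools left out, the log2 fold changes were −0.42 for Jund, 0.15 for Fos, 0.98 for Egr1 and 0.23 for Myc, and edgeR called 0 of the 6 tested.

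Among the genes most like Myc across the 8 libraries, by root mean square difference of mean-centred log2 CPM, were Cfap126 at 0.123 and Gtsf1l at 0.128. The median over the 11332 genes compared was 0.473. Cfap126 stood at 13.5, 22.7, 19.1 and 13.8 CPM in DKO pools 1 to 4 and at 12.3, 15.7, 14.1 and 21 CPM in wild-type pools 1 to 4. Like Myc, it was highest in DKO pool 2 and second in wild-type pool 4, which follows from its choice by likeness to Myc. Nearest to Egr1 were Dusp18, Cacnb2 and Olfr976, at 0.248 to 0.258 against a median of 0.693.

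Genes that act with, above or below these factors were read from 9 lists with 147 tested members. edgeR called 0 higher and 0 lower in DKO, and at an unadjusted p under 0.05 there were 5 higher and 6 lower, or 11 of 147, where all tested genes gave 10.2% in either direction. DESeq2 called 1, Zfp36, and limma-voom 0. Of the 147, 78 had a positive log2 fold change, against 51.2% of all tested genes, and 7 had no overlap between the genotypes, where all tested genes gave 5.34%. The counts of each list below are to be read against these shares over all tested genes.

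Among bZIP genes related to AP-1, the RNA of Atf2 was far above that of any of the 10 genes per length. Atf2, a JNK and p38 target that pairs with JUN, averaged 82.1 ± 4.88 CPM per kilobase in DKO and 93.4 ± 5.02 CPM per kilobase in wild-type pools (SD, n = 4 each), while Jund averaged 5.85 CPM per kilobase over all 8 libraries. Atf2 was lower in each DKO pool than in any wild-type pool, with a log2 fold change of −0.19 ± 0.13 (standard error, edgeR adjusted p = 0.6). The median log2 fold change of the 19 tested was −0.08, against 0.01 for all genes tested, and −0.01 without wild-type pool 1. Over the 12 members with a mean of at least 10 CPM it was 0.06. Bach2, a bZIP repressor, had the smallest p of this list (log2 fold change 0.75 ± 0.25, standard error, edgeR adjusted p = 0.469), and Creb3 and Atf1 stood at −0.44 and −0.16, with Atf1 at −0.08 without DKO pool 1.

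The MAP kinase cascade had a median of 0.05, with 15 of 27 tested members positive, and of −0.03 without DKO pool 1. Map2k2, which activates ERK, stood at 12.2, 18.4, 17.8 and 19.4 CPM in DKO pools 1 to 4, against 28.7, 23.8, 24.2 and 26.9 CPM in wild-type pools 1 to 4. Every DKO pool lay below every wild-type pool, with a log2 fold change of −0.61 ± 0.20 (standard error, edgeR adjusted p = 0.469), and the gene lies 0.174 Mb from Gadd45b on GRCm38. Mapkapk2, a kinase below p38, averaged 4.19 ± 1.09 CPM in DKO and 2.16 ± 0.932 CPM in wild-type pools (SD, n = 4 each, log2 fold change 0.95, edgeR adjusted p = 0.469), also without overlap. Mapk8, which encodes JNK1, had a log2 fold change of 0.39, with DKO pool 1 at 155 CPM and the other 7 pools at 64.9 to 93.1 CPM, and 0.11 without that pool.

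Factors that act on immediate early promoters had a median of 0.29, with 9 of 12 members positive. Elk4, a TCF partner of serum response factor, stood at 53.9, 42.7, 42.6 and 51.2 CPM in DKO pools 1 to 4, against 37.8, 32.3, 36.5 and 29.8 CPM in wild-type pools 1 to 4. Each DKO pool exceeded each wild-type pool, with a log2 fold change of 0.48 ± 0.17 (standard error, edgeR adjusted p = 0.469). The coactivators Crebbp and Ep300 had log2 fold changes of 0.36 and 0.15, and of 0.22 and 0.07 without DKO pool 1. Nab1 and Nab2, corepressors that EGR proteins recruit, had values of 0.40 and 0.30 (edgeR adjusted p = 0.536 and 0.911), and the sign of Nab2 turned in 3 alternative settings. Without DKO pool 1, Nab1 was at 0.09 and the median of this pair was 0.05, against 0.35 with all pools.

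Other immediate early genes had 12 of 31 tested members positive, against 51.2% of all tested genes, and a median of −0.16. In 3 members the genotypes did not overlap, each lower in DKO, where all tested genes gave 5.34% in either direction. The median was 0.03 without wild-type pool 3, −0.01 without DKO pool 2, −0.04 without wild-type pool 1 and −0.25 without DKO pool 1. Zfp36 encodes TTP, which binds AU-rich elements and speeds decay of Fos and other immediate early RNAs in somatic cells. It stood at 9.03, 6.90, 8.98 and 9.88 CPM in DKO pools 1 to 4, against 18.3, 17.3, 13.3 and 13.7 CPM in wild-type pools 1 to 4, a log2 fold change of −0.85 ± 0.22 (standard error). Its edgeR adjusted p was 0.453, and adjusted p ranged from 0.031 by DESeq2 to 0.746 over 17 alternative settings, of which DESeq2 alone passed the threshold. Trib1, a pseudokinase, stood at 2.55, 1.41, 1.28 and 0.534 CPM in DKO pools 1 to 4, against 4.4, 3.63, 3.71 and 4.78 CPM in wild-type pools 1 to 4 (log2 fold change −1.51 ± 0.42, standard error, edgeR adjusted p = 0.469). The third was Klf2, named after its values were seen, at 8.81 to 12.9 CPM in DKO and 15 to 21 CPM in wild-type pools (edgeR adjusted p = 0.469). The abundant members Mcl1 and Btg1 had log2 fold changes of 0.08 and −0.16, with Mcl1 near 0 without wild-type pool 3 and Btg1 at −0.24 without wild-type pool 1.

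The MYC and MAX network had a median of −0.02, with 6 of 12 tested members positive. The sign of that median turned without DKO pool 1 or wild-type pool 3, to at most 0.02. Over the 7 members with a mean of at least 10 CPM the median was 0.095. Max, the obligate partner, averaged 46.0 ± 10.8 CPM in DKO and 39.6 ± 6.92 CPM in wild-type pools (SD, n = 4 each, log2 fold change 0.22, edgeR adjusted p = 0.688), and its log2 fold change was 0.04 without DKO pool 1. Mga, a MAX partner that represses germ cell genes, was the most abundant of the list in reads, at 345.6 ± 76.9 CPM in DKO and 372.6 ± 43.4 CPM in wild-type pools (SD, n = 4 each). Its log2 fold change of −0.11 became 0.02 without DKO pool 1. Mxi1 and Mlxipl, further members of the network, stood at −0.52 and −0.28 (edgeR adjusted p = 0.588 and 0.587). Mxi1 was at −0.19 without wild-type pool 1, −0.30 without DKO pool 1 and −0.79 without DKO pool 2.

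Regulators of AP-1 and MYC protein stability had a median of 0.08 over 12 genes, with Trib2 at 0.47, Det1 at −0.37 and Cop1 at 0.23. Without DKO pool 1 the median turned to −0.02, Cop1 was at 0.01 and Trib2 at 0.26. Genes known in somatic cells as AP-1 targets had a median of 0.24, with 9 of 12 tested members positive, with Nqo1 at 0.31, Dmtf1 at −0.33 and Tgfb1 at −0.996 (edgeR adjusted p of 0.574, 0.488 and 0.478). That median was 0.07 without DKO pool 1, 0.09 without wild-type pool 1 and 0.38 without wild-type pool 3, and Tgfb1 was at −0.56 without wild-type pool 4. MYC targets had 8 of 20 positive and a median of −0.13, with a range of −0.23 to −0.04 when 1 pool was left out. Among them the ribosome assembly factors Ppan and Nop56 stood at −0.41 and −0.34 (edgeR adjusted p = 0.476 and 0.489), the translation factor Eif4e at −0.32 and Npm1 at −0.21, the last 2 at −0.18 and −0.02 without wild-type pool 4.

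**Figure D4:**
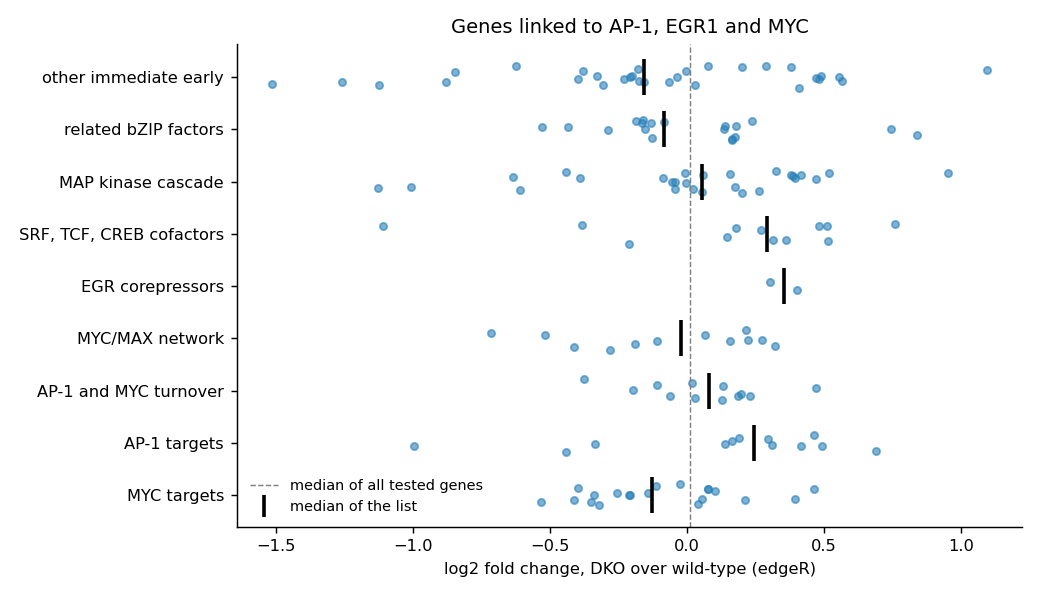
Log2 fold change, DKO over wild-type, of each tested gene in the 9 lists, with a bar at each list's median and a broken line at the median of all tested genes, 0.01. List medians run from −0.16 for other immediate early genes to 0.35 for the EGR corepressors, a list of 2 genes, and points fall on both sides of 0 in each list of more than 2.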

How the data were processed

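The authors deposited whole-number counts per Ensembl gene, not normalized, with a table for each library. STAR 2.5.2b, featureCounts 1.5.1, DESeq2 1.18.1 and builds NCBIM37 and mm9 are named, per the submitters' processing notes; strand and multi-mapping settings are not given in the sources used here. Per the labels' protocols, polyA RNA gave SMART-Seq cDNA in 11 PCR cycles and libraries in 11 more, sequenced together as single reads of 85 cycles. No step described marks molecules, so the Poisson intervals and the limits for 0 counts cover counting error only; edgeR's intervals also hold the spread between pools. Symbols matched 32620 identifiers. Exon lengths, overlaps and distances are from GENCODE M21 on GRCm38, a later build, so levels per kilobase are approximate.

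The test was that of edgeR 4.0.16, run in R 4.3.3 (filterByExpr, TMM, robust quasi-likelihood, Benjamini-Hochberg over 14970 genes, threshold 0.05), all 8 libraries, no covariates, and the code was tested on simulated data. CPM were scaled by TMM, with a prior count of 2 for log2 values. DESeq2 1.42.0, limma 3.58.1 (voom), other scalings and filters, a replicate block and each library left out were alternatives. The 10 genes, the lists and the motifs were chosen with earlier results or sequences of these data known. Named genes were the 10, the GADD45 genes, in each list the 2 of smallest p and the 2 of highest mean CPM, and the 3 nearest in pattern to the 10's most abundant gene and to that of smallest p; a few of these are not reported here. The 8 libraries all differed by more than sampling noise, and the lowest chi-square of a pair was 24.0 per degree of freedom.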

Additional observations from a re-analysis of the deposited data

Results flagged for a closer look

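A pool was singled out when its gap to the nearest other pool of its genotype took up more than 0.829 of that genotype's range. This was examined in 94 groups of 4 pools and met in 7; chance gives about 1 in 20. Among the 10 genes it met Jund in wild-type pool 1, at 5.27 CPM against 11.2 to 11.8 CPM in the other wild-type pools, and Fosb in wild-type pool 3, at 1.16 CPM against 0.432 to 0.506 CPM. Of the related genes, Atf1 was at 484 CPM in wild-type pool 4 against 417 to 425 CPM, Mxi1 at 14.9 CPM in wild-type pool 1 against 6.84 to 8.09 CPM, and Nop56 at 255 CPM in wild-type pool 3 against 323 to 327 CPM. The summed blood cell markers were at 203 CPM in DKO pool 4 against 10.4 to 13.3 CPM in the other DKO pools. In wild-type pool 1 they were at 158 CPM against 9.21 to 12.2 CPM in the other wild-type pools.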

How the results depend on the processing

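Among the 10 genes 0 were called in each of 17 alternative settings, with a smallest adjusted p of 0.428. Over all genes edgeR called 4 in each setting with 1 pool left out. It called 7 with no filter and 1 at a mean of at least 10 CPM, DESeq2 called 47, 28 higher and 19 lower, and the lists held 1 call by DESeq2 and 0 otherwise. With the replicate number as a block edgeR called 4 genes and 0 of the 10. The numbers do not pair the pools: same-numbered deviations correlated at 0.00235, 0.0174, 0.0343 and 0.078, and not every pool correlated best with its own number. Log2 fold changes turned sign for Fos (−0.079) and Nab2 (−0.10) by limma-voom and for Junb (−0.17) without the globin-bearing pools, a setting chosen after seeing the data. With 1 pool left out the ranges were −0.23 to 0.49 for Fosb, −0.066 to 1.29 for Junb, −0.27 to 0.062 for Jund, −0.15 to 0.97 for Nab2, −0.23 to 0.025 for Mga and −0.15 to 0.43 for Gadd45g. Summed marker levels (DKO minus wild-type) then ranged from −2.13 to 3.23 CPM for cumulus cells and −35.7 to 48.7 CPM for blood. For the 12 markers of the 2-cell embryo and oocyte the range was 1170 to 2240 CPM. There the exact permutation p was 0.0286 without wild-type pool 3, the smallest that 4 pools against 3 allow. The largest part of their sum was the oocyte transcript Omt2b, at a mean of 3663 CPM in DKO and 2193 CPM in wild-type pools. Of the 12 markers 8 had a positive and 4 a negative log2 fold change, the latter including Dppa2 at −0.57 and Tdpoz4 at −0.88. Without both globin-bearing pools the cumulus difference was −1.21 CPM. The cause of these changes was not tested. Jun and Fosl1 had 19 and 10 counts over the 8 libraries. Fosl2 and Atf3 had 54 and 75 and also varied between pools of a genotype beyond counting error, by a chi-square of 5.99 and 7.85 per degree of freedom. The same measure ran from 3.28 for Fosb to 19.5 for Myc in the 6 tested genes.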
